A study of Mus musculus with 8 samples.

Results

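The RNA of 10 genes that mark or maintain intestinal stem cells was followed in IECs, the intestinal epithelial cells that EDTA washes release from the gut wall. The genes, *Lgr5*, *Olfm4*, *Ascl2*, *Smoc2*, *Rgmb*, *Prom1*, *Msi1*, *Bmi1*, *Cdca7* and *Tnfrsf19*, were taken by name, each as a known marker or regulator of these cells. Both deposited tables list all 10 members, of 40178 genes listed in at least 1 table. The 8 libraries came from 4 mice, aged 8 weeks by the sample labels, with 1 colon and 1 ileum library for each mouse. All 4 mice carried the Villin1 Cre transgene (Vil1Cre+), which is active throughout the intestinal epithelium. WT IEC mice (n = 2) were Ddx5 +/+, and DDX5ΔIEC mice (n = 2) were Ddx5 fl/fl, so that the RNA helicase DDX5 was deleted in the epithelium only. The mice were healthy and untreated.

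Intestinal stem cells sit at the base of the crypts, divide continuously and replace the whole epithelial lining. They depend on Wnt and R-spondin signals, and in the small intestine they lie between Paneth cells, which supply Wnt, Notch and growth factor ligands. LGR5, an R-spondin receptor and Wnt target, is their classical marker in both the small intestine and the colon. OLFM4 is a secreted glycoprotein that marks the same cells in the mouse small intestine. BMI1 and other genes were first described in slower cycling or reserve cells, and several members are also made in the progeny of stem cells.

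Reads counted on genes ranged from 11571061 to 22984283 per library. Levels are in CPM, reads per gene relative to library size with TMM scaling (a normalization across libraries) over all 8 libraries. The targeted gene *Ddx5* was at 706 and 771 CPM in WT IEC colon and at 355 and 367 in DDX5ΔIEC colon. In the ileum it was at 700.3 and 700.5 CPM in WT IEC and at 326 and 340 in DDX5ΔIEC. Counts over the whole gene do not show how complete the deletion was. By qRT-PCR and Western blot, the paper reports an efficient loss of DDX5 RNA and protein in small intestine and colon. The general epithelial markers summed to between 10355 and 15762 CPM, against 7.67 to 75.6 for leukocytes, 2.01 to 14.0 for stroma and at most 1.2 for smooth muscle. Each DDX5ΔIEC colon library stood apart from the other colon libraries in some members. Replicate 1 did so in *Prom1*, *Msi1* and *Olfm4* and in the lowest sum of proliferation genes, and replicate 2 in *Lgr5*, *Tnfrsf19* and *Ascl2*. DDX5ΔIEC ileum replicate 2 had 19.5% of its counts on 3 repeat-like genes, against 0.226% in replicate 1. Because IECs were taken in bulk, fewer stem cells and less RNA per stem cell cannot be told apart.

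**Figure D1:**
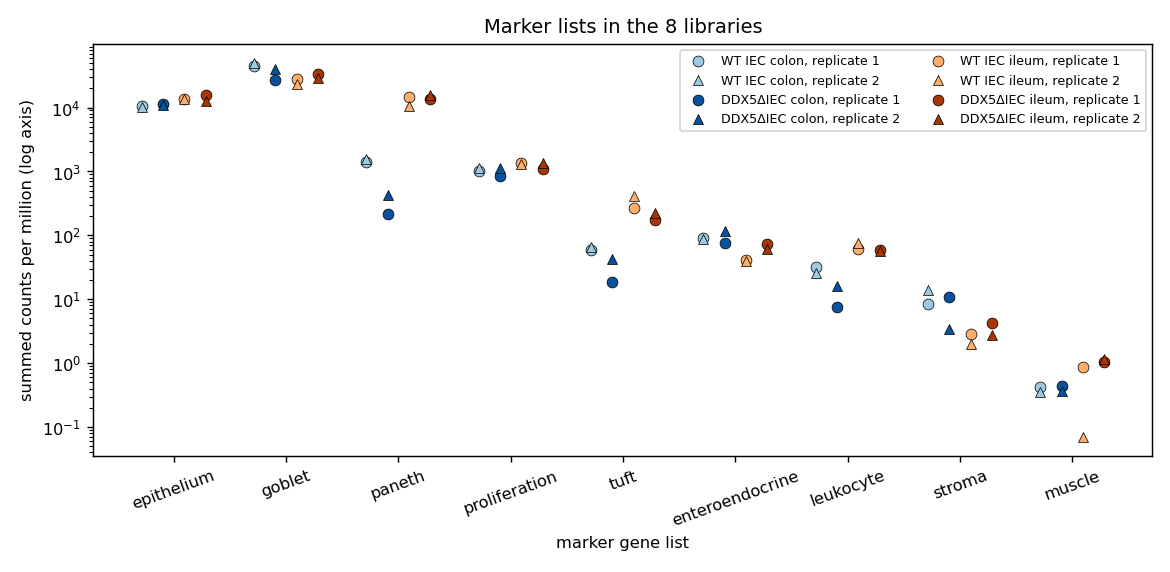
Summed CPM of marker gene lists on a log axis, for each of the 8 libraries (colour, genotype and tissue; symbol, replicate). The general epithelial list lies at 10355 CPM or more in every library and muscle at 1.2 CPM or less. The Paneth cell, tuft cell, leukocyte and general epithelial lists are higher in every ileum library than in any colon library, and the enteroendocrine list is lower.

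In the GENCODE annotation of GRCm38, *Lgr5* lies on chromosome 10 from 115450311 to 115587780 on the minus strand and *Olfm4* on chromosome 14 from 79984081 to 80023139 on the plus strand. *Ascl2* spans 142966829 to 142969264 on chromosome 7 (minus) and *Smoc2* 14279506 to 14404790 on chromosome 17 (plus). *Prom1* (43993620 to 44102032, minus) and *Msi1* (115429599 to 115455698, plus) are both on chromosome 5. *Bmi1* (18677018 to 18686629) and *Cdca7* (72476159 to 72486893) are both on the plus strand of chromosome 2. *Tnfrsf19* is on chromosome 14 from 60963875 to 61046490 on the minus strand. *Rgmb* has another version of its identifier in this annotation and is given without a position. Exons of *Prom1* overlap those of Gm16401 on the opposite strand over 5.91% of their length, and exons of *Olfm4* overlap those of Gm6999 on the same strand over 5.17%. Reads in the *Olfm4* overlap could belong to either gene. In the *Prom1* overlap they could be separated only by strand, and the strand setting of the counting is not given in the sources used here. Of the 50-base words in *Bmi1* transcripts, 16.7% also occur in other genes, against 5.10% for *Prom1*, 3.55% for *Olfm4*, 0.676% for *Lgr5* and 0 for the other 6 members.

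Promoter windows, 250 bases before to 50 after the start, were read from RefSeq (GRCm38.p6), which gave an entry for 7 of the 10 members. It listed 3 starts for *Rgmb* and 2 each for *Prom1* and *Tnfrsf19*. For each member only the start nearest the GENCODE start was read, and windows at the others were not searched. The windows of *Olfm4*, *Prom1* and *Rgmb* are shown because these members differed between ileum and colon, and that of *Cdca7* because it did not. Capitals mark CG dinucleotides and the TATA box hexamer TATAAA.
Olfm4: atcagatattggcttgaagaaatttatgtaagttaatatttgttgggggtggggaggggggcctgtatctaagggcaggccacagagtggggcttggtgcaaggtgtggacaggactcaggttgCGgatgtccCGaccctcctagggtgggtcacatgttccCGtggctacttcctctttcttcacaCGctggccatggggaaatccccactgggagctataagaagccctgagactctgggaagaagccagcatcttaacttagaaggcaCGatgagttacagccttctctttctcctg
Prom1: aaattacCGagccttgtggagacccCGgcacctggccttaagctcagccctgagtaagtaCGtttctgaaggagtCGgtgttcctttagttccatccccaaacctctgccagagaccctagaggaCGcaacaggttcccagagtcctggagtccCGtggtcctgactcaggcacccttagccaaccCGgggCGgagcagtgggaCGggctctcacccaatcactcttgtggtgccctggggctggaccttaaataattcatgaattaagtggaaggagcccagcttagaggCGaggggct
Rgmb: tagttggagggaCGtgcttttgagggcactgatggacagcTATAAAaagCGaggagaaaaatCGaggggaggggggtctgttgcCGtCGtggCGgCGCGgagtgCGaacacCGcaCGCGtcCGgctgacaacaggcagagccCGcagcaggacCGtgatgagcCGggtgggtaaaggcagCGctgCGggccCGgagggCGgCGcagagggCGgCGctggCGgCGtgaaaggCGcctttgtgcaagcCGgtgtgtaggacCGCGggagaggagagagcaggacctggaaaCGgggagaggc
Cdca7: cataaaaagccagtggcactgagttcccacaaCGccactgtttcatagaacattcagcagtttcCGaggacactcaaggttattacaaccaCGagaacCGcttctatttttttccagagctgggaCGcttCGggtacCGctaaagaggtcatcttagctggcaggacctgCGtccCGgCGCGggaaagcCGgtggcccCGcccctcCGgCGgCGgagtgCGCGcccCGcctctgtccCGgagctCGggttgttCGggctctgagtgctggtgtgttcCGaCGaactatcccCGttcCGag
They lie at chr14:80000052-80000351, plus strand (*Olfm4*), chr5:44101687-44101986, minus strand (*Prom1*), chr17:15831016-15831315, minus strand (*Rgmb*) and chr2:72475969-72476268, plus strand (*Cdca7*). The *Olfm4* window held 5 CG dinucleotides and the *Prom1* window 10, against 30 for *Rgmb* and 26 for *Cdca7*. The median over 32544 windows of the same length was 7, with quartiles of 3 and 20. *Ascl2* and *Bmi1* had 23 each and *Tnfrsf19* 14. The start that RefSeq lists for *Olfm4* lies 16221 bases inside the GENCODE gene, so this window belongs to a downstream start. On both strands, CTTTGA, the core of the TCF/LEF site through which Wnt signals act, was in none of the 7 windows, and it was in 16.0% of all windows. CAGCTG, an E-box, was also in none of the 7 and in 16.4% of all. TATAAA was in 1 of the 7, that of *Rgmb*, 210 bases before the start, and in 13.6% of all. None of these 3 motifs overlaps another here. The letters describe the windows only.

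The members covered a wide range of levels in WT IEC ileum. Divided by the deposited exon length, *Olfm4* was at 229 ± 1.64 CPM per kilobase (SD, n = 2 mice), followed by *Prom1* at 27.6 ± 0.451 and *Cdca7* at 13.7 ± 2.48. *Lgr5* was at 1.62 ± 0.480 CPM per kilobase, the eighth of the 10 members. In WT IEC colon, *Prom1* was highest at 46.2 ± 1.38 CPM per kilobase and *Cdca7* was next at 13.2 ± 1.77. *Lgr5* there was at 0.519 ± 0.0548 CPM per kilobase, and *Olfm4* was lowest at 0.170 ± 0.00980. *Olfm4* therefore had rank 1 in all 4 ileum libraries and rank 9 or 10 in all 4 colon libraries. *Ascl2*, *Rgmb*, *Prom1*, *Cdca7* and *Tnfrsf19* each kept 1 rank over the ileum libraries, and 8 of the 10 members did so over the colon libraries, *Olfm4* and *Msi1* being the exceptions. Neighbours in this order whose libraries overlapped in WT IEC ileum were *Rgmb* and *Smoc2*, *Smoc2* and *Bmi1*, *Ascl2* and *Lgr5*, and *Msi1* and *Tnfrsf19*. In WT IEC colon they were *Bmi1* and *Smoc2*, and *Msi1* and *Olfm4*.

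**Figure D2:**
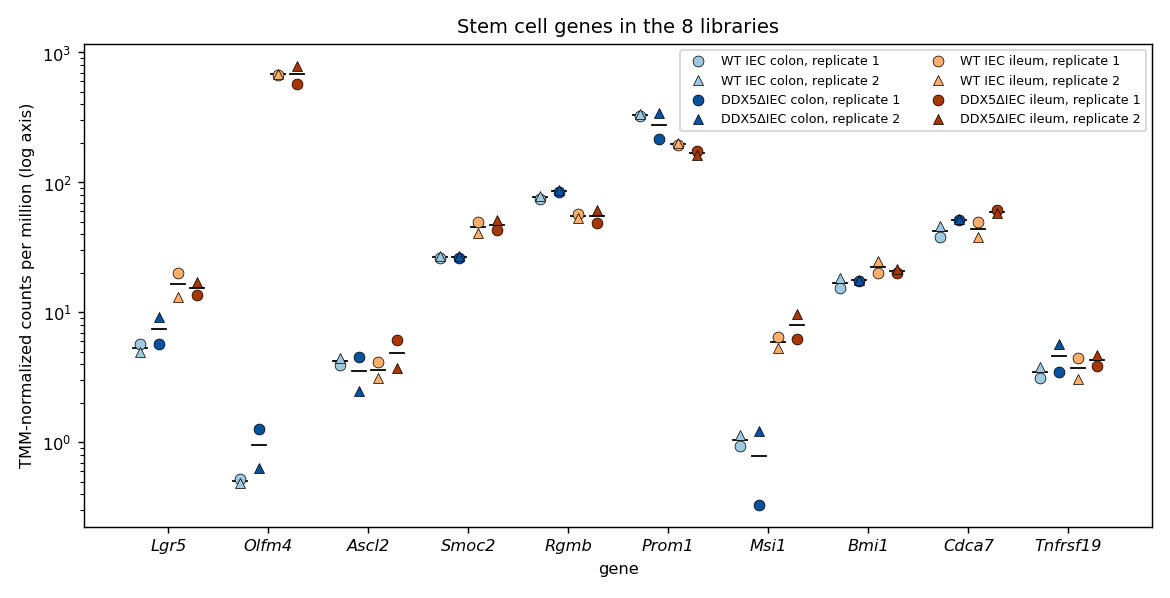
CPM of the 10 members on a log axis, 1 point for each library (colour, genotype and tissue; symbol, replicate) and a bar at the mean of each group of 2. *Olfm4* lies between 0.484 and 1.27 CPM in the colon and between 576 and 788 in the ileum, and the other members differ far less between tissues.

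Ileal and colonic IECs of the WT IEC mice differed in 6 of the 10 members (adjusted p under 0.05, edgeR's quasi-likelihood test over all 16178 genes tested). *Olfm4*, *Msi1*, *Lgr5* and *Smoc2* were higher in the ileum, and *Prom1* and *Rgmb* were lower. *Ascl2*, *Bmi1*, *Cdca7* and *Tnfrsf19* were not called. All 10 members passed the filter on low counts. The same test called 34.2% of all genes, 17.4% higher and 16.8% lower, and the libraries of the tissues did not overlap for 72.8% of all genes, with 35.3% higher and 37.5% lower in the ileum. For 7 of the 10 members they did not overlap, 5 higher and 2 lower. The median log2 fold change was 0.26 over the members and -0.018 over all genes. The ileum and colon libraries compared here came from the same 2 mice, and the main fit did not pair them. With 2 libraries against 2, an exact permutation test cannot reach the threshold. Each p-value therefore rests on a spread shared across genes, and on mice that the labels only number.

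The 2 secreted members were both higher in the ileum. *Olfm4* had 10 and 11 counts in the WT IEC colon libraries and 14616 and 9821 in the ileum libraries of the same mice. This corresponds to 0.525 and 0.484 CPM against 674 and 681, with no overlap. The log2 fold change was 10.37 (SE 0.33, edgeR adjusted p = 8.0e-07), or 1328-fold (95% interval 781 to 2257). *Smoc2*, a matricellular protein, was at 26.2 and 27.2 CPM in the colon and at 49.3 and 41.0 in the ileum. Its rise was 1.70-fold (95% interval 1.37 to 2.09, log2 fold change 0.76, SE 0.13, edgeR adjusted p = 0.0027).

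Of the receptors and surface proteins, *Lgr5* was higher in the ileum, *Prom1* and *Rgmb* were lower, and *Tnfrsf19* was not called. *Lgr5* was at 5.72 and 4.93 CPM in WT IEC colon and at 20.1 and 13.1 in the ileum. Its ileum libraries varied among themselves but lay above both colon libraries, 3.13-fold higher in the fit (95% interval 1.99 to 4.93, edgeR adjusted p = 0.0026). *Prom1*, the pentaspan membrane protein CD133, was at 324 and 338 CPM in the colon and fell by 0.74 on the log2 scale to 195 and 200 in the ileum (SE 0.19, edgeR adjusted p = 0.019). *Rgmb*, a BMP co-receptor, was at 74.9 and 78.3 CPM in the colon and fell by 0.47 to 56.9 and 53.5 (SE 0.13, edgeR adjusted p = 0.021). The calls of *Prom1* and *Rgmb* were lost whenever any 1 of the 4 WT IEC libraries was left out (adjusted p of 0.068 to 0.114), while their log2 fold changes stayed below 0. *Tnfrsf19*, known as TROY, was at 3.15 and 3.83 CPM in the colon and at 4.43 and 3.05 in the ileum, and these ranges overlapped (log2 fold change 0.11, SE 0.31, edgeR adjusted p = 0.81).

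Among the nuclear and RNA-binding members, only *Msi1* was called between the tissues. *Msi1*, an RNA-binding protein of the Musashi family, had 18 and 26 counts in WT IEC colon and 141 and 77 in the ileum. It was at 0.945 and 1.14 CPM against 6.51 and 5.34, 5.63-fold higher (95% interval 2.80 to 11.3, edgeR adjusted p = 0.0029). *Bmi1*, a Polycomb subunit, was at 15.4 and 18.5 CPM in the colon and at 20.1 and 24.97 in the ileum. Its libraries did not overlap, but it missed the threshold (log2 fold change 0.41, SE 0.15, edgeR adjusted p = 0.068). With the mouse as a block *Bmi1* passed it (adjusted p = 0.028). *Ascl2*, the Wnt-dependent transcription factor of stem cell fate, was at 3.94 and 4.49 CPM in the colon and at 4.15 and 3.12 in the ileum, which overlap (log2 fold change -0.20, 95% interval -0.97 to 0.57). *Cdca7*, a chromatin-associated protein of dividing cells, was at 38.3 and 46.3 CPM in the colon and at 49.5 and 38.3 in the ileum (log2 fold change 0.06, 95% interval -0.28 to 0.39).

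The tissue difference was next measured in the DDX5ΔIEC mice, from other libraries but in the same fit over all 8, so that both comparisons share the estimate of the spread. The same 6 members were called in the same directions, against 35.3% of all genes. In a fit on the DDX5ΔIEC libraries alone, *Prom1* was not called (adjusted p = 0.087) and the other 5 were. *Olfm4* had 23 and 14 counts in DDX5ΔIEC colon and 6144 and 7357 in the ileum, 725-fold higher (95% interval 439 to 1198, edgeR adjusted p = 1.0e-06). *Msi1* was at 0.331 and 1.23 CPM in the colon and at 6.28 and 9.74 in the ileum, a log2 fold change of 3.29 (SE 0.47, edgeR adjusted p = 9.4e-04). *Lgr5* was at 5.74 and 9.30 CPM in the colon and at 13.6 and 17.2 in the ileum, 2.04-fold higher (95% interval 1.29 to 3.20, edgeR adjusted p = 0.024). *Smoc2* was 1.76-fold higher in the ileum (adjusted p = 0.0021), and *Prom1* (adjusted p = 0.021) and *Rgmb* (adjusted p = 0.0055) fell by 0.72 and 0.64 on the log2 scale. *Lgr5* lost its call without DDX5ΔIEC colon replicate 1 (adjusted p = 0.106) or ileum replicate 2 (0.096). *Prom1* lost its call without colon replicate 2 (0.100) or ileum replicate 2 (0.086), and its log2 fold change without colon replicate 2 was -0.35. Without 1 library, the lone library of a group is assumed to vary like the others.

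**Figure D3:**
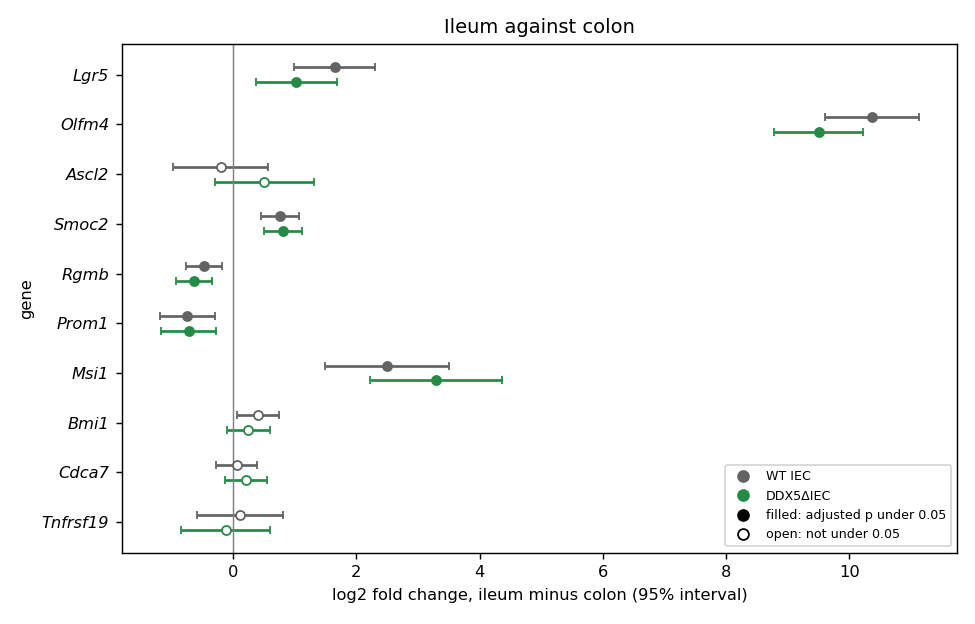
Log2 fold change of each member, ileum minus colon, in WT IEC (grey) and DDX5ΔIEC mice (green), with 95% intervals. Filled points have an adjusted p under 0.05. *Olfm4* stands at 10.37 and 9.50, *Msi1*, *Lgr5* and *Smoc2* are above 0, and *Prom1* and *Rgmb* are below 0 in both genotypes.

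Whether the tissue difference itself depended on the genotype was tested as an interaction over all 8 libraries. None of the 10 members was called, and none had an unadjusted p under 0.05 in edgeR's quasi-likelihood test; DESeq2 called none either. Over all genes, 0.0124% were called and 4.67% had an unadjusted p under 0.05. The largest difference among the members was that of *Olfm4*, -0.87 on the log2 scale (SE 0.45, 95% interval -1.90 to 0.15, edgeR adjusted p = 1.00). That of *Msi1* was 0.80 (95% interval -0.70 to 2.29) and that of *Lgr5* -0.62 (-1.54 to 0.29). These intervals are wide, and they include changes of more than 2-fold for all 3 genes.

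Ratios of members within a library do not depend on how libraries are scaled. Per kilobase, *Olfm4* was at 116 and 180 times the level of *Lgr5* in WT IEC ileum, and at 147 and 158 times in DDX5ΔIEC ileum. In the colon the ratio was 0.318 and 0.340 in WT IEC and 0.766 and 0.238 in DDX5ΔIEC, so *Lgr5* exceeded *Olfm4* in every colon library. *Smoc2* was at 3.63 to 4.68 times the level of *Lgr5* per kilobase in the ileum libraries and at 4.31 to 8.13 times in the colon. *Lgr4*, the relative of *Lgr5* that is expressed more widely in the epithelium, was at 28.9 to 44.0 times *Lgr5* per kilobase in the ileum and at 57.2 to 121 times in the colon. *Msi2*, the other Musashi gene, was at 2.51 to 5.86 times *Msi1* per kilobase in the ileum and at 41.3 to 190.5 times in the colon.

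Other genes of the crypt base moved in both directions between the tissues. Of 17 listed, 16 were tested, and 3 were higher and 4 lower in WT IEC ileum. *Axin2*, a negative regulator and target of Wnt signaling, was higher by 1.38 (SE 0.15, edgeR adjusted p = 2.4e-04) on the log2 scale, and *Igfbp4*, which binds insulin-like growth factors, by 3.41 (SE 0.40, adjusted p = 3.4e-04). *Soat1*, a cholesterol-esterifying enzyme (-0.95, adjusted p = 0.0016) and *Lrig1*, an inhibitor of EGF receptor signaling (-0.67, adjusted p = 0.0041), were lower. Their median log2 fold change was 0.05, against -0.018 over all genes. Of the relatives of the members, 7 of 9 were tested: *Msi2* fell by 0.81 (SE 0.14, adjusted p = 0.0029), opposite in direction to *Msi1*, and *Prom2* was called higher with 15 and 12 counts in WT IEC ileum and 0 in all 4 colon libraries. Genes linked to reserve or repairing cells were lower in the ileum in 3 of 5 tested, namely *Anxa1* (log2 fold change -6.14, adjusted p = 2.8e-06), *Ly6a* (-3.02, adjusted p = 3.7e-05) and *Clu* (-2.31, adjusted p = 0.028). *Hopx*, a marker of reserve stem cells in the same list, was at 24.6 and 28.2 CPM in WT IEC colon and at 33.1 and 30.0 in the ileum and was not called. Over the 8 fits with 1 library left out, *Prom2*, *Clu*, *Sp5*, *Ephb3* and *Myb* each lost the call in some and kept their sign. The last 3 of these are crypt base genes.

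Ligands made by the epithelium also differed. Of 6 tested, 4 were higher and 1 lower in WT IEC ileum. *Wnt3*, a Wnt ligand of Paneth cells, had 1 count in each WT IEC colon library and 146 and 52 in the ileum libraries. The Notch ligand *Dll1* was higher by 0.68 on the log2 scale (adjusted p = 0.018) and *Tgfa* by 0.51 (adjusted p = 0.010), while *Egf* fell by 2.04 (adjusted p = 0.0036). Over the 8 fits with 1 library left out, *Dll1* (0.58 to 0.78), *Tgfa* (0.39 to 0.61) and *Dll4* (0.42 to 0.84) were not called in all. Stromal niche genes, among them the R-spondin genes *Rspo1*, *Rspo2* and *Rspo3*, had at most 8 counts in any library, and their 7 genes summed to 0.0880 to 2.46 CPM, so none was tested. Beside the tissue difference of *Olfm4*, 5 of 6 Paneth cell markers were called higher in WT IEC ileum and 6 of 6 in DDX5ΔIEC. Their sum was 218 to 1577 CPM in the colon, largely from *Ang4* and with no marker at 0, and 10422 to 15923 in the ileum. All 4 tuft cell markers were also called higher in the ileum in both genotypes. The part of Paneth and tuft cells in the results was not tested. Of 17 proliferation genes, 2 were called higher and 1 lower in WT IEC ileum, and 14 had a positive log2 fold change. The libraries did not overlap for 8 that were higher and 2 that were lower, against 35.3% higher and 37.5% lower over all genes. The median log2 fold change of the proliferation genes was 0.24, beside 0.26 for the members. Their sum was 1026 and 1134 CPM in WT IEC colon and 1312 and 1358 in the ileum, with no overlap, and its part in the members' values was not tested. None of the proliferation calls held in all 8 fits with 1 library left out. Leukocyte markers were called higher in 3 of 8 tested, with 25.4 and 32.4 CPM in WT IEC colon and 62.0 and 75.6 in the ileum, and *Cd79a* was at 0 in some libraries of both tissues. Stroma markers were lower in all 4 tested, and *Lum* was at 0 in 1 of the 4 WT IEC libraries. Of the leukocyte calls, only that of *Ptprc* held in all 8 fits with 1 library left out, and no stroma call did. The log2 fold changes of the stroma genes stayed below 0 in these fits.

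The gene whose pattern over the 8 libraries was most like that of *Lgr5* was *Papln*, followed by *Tnnt1* and *Zmiz1*. Likeness was measured as the root mean square difference of log2 CPM after each gene was centred on its own mean, among 16177 genes. It was 0.145 for *Papln*, 0.147 for *Tnnt1* and 0.208 for *Zmiz1*. *Papln* and *Tnnt1* are low, at 0.440 to 4.71 CPM over the libraries, and *Zmiz1*, a transcriptional coregulator, was at 53.6 to 77.0 CPM in the colon and at 125 to 155 in the ileum. For *Olfm4* the 3 genes were *Npc1l1* (0.395), *Lyz1* (0.432) and *Defa21* (0.518). *Npc1l1*, the cholesterol transporter of absorptive cells, was at 438 to 589 CPM in the ileum and at most 0.775 in the colon. *Lyz1* and *Defa21* are Paneth cell genes, and *Defa21* was listed at 0 in all 4 colon libraries.

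No member changed with DDX5 in the colon at an adjusted p under 0.05, and no gene did: 0% of 15362 genes were called by edgeR with the replicate block. An unadjusted p under 0.05 was reached by 1 of the 10 members and by 12% of all genes. The study's criterion, an unadjusted p under 0.05 and a log2 fold change that is 0.5 or more in size, took 0 of 10 members and 6.71% of all genes. DESeq2, which called 118 genes, also called none of the members. The log2 fold changes of the members ran from -0.50 to 0.84, with a median of 0.10, against -0.00042 over all genes, and 6 were positive. *Cdca7* was the member with the smallest p. It was at 38.3 and 46.3 CPM in WT IEC colon and at 51.3 and 52.4 in DDX5ΔIEC, 1.22-fold (95% interval 1.00 to 1.49, unadjusted p = 0.049, edgeR adjusted p = 0.42).

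The 2 DDX5ΔIEC colon libraries often lay apart from each other. *Prom1* was at 215 CPM in replicate 1 and 341 in replicate 2, against 324 and 338 in WT IEC (log2 fold change -0.30, 95% interval -0.71 to 0.11). Replicate 1 alone was low. *Msi1* had 6 counts in replicate 1 and 27 in replicate 2, against 18 and 26 in WT IEC (-0.50, -1.78 to 0.78). *Lgr5* was at 5.74 and 9.30 CPM, against 5.72 and 4.93 in WT IEC, so that only replicate 2 was clearly higher (0.46, -0.25 to 1.177). *Tnfrsf19* was at 3.48 and 5.74 CPM, against 3.15 and 3.83 (0.37, -0.24 to 0.97). *Ascl2* went the other way, with 4.53 CPM in replicate 1 and 2.51 in replicate 2, against 3.94 and 4.49 (-0.32, -1.15 to 0.51). *Olfm4* had 23 and 14 counts, against 10 and 11, a log2 fold change of 0.84 whose interval of -0.30 to 1.98 includes 0.

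The colon values of several members depended on which DDX5ΔIEC library was left out. These fits had no replicate block, because 3 libraries leave no residual degrees of freedom beside one, and the fit of all 4 colon libraries without the block also called no member. Without replicate 1, the log2 fold change was 0.79 for *Lgr5*, 0.70 for *Tnfrsf19*, -0.76 for *Ascl2* and 0.031 for *Prom1*. Without replicate 2, it was -0.64 for *Prom1*, -1.66 for *Msi1*, 1.31 for *Olfm4* and 0.097 for *Lgr5*. Each of these fits rests on a single DDX5ΔIEC library, so only log2 fold changes are read from them here. Proliferation genes summed to 840 CPM in replicate 1 and 1137 in replicate 2, against 1026 and 1134 in WT IEC. Tuft cell markers summed to 18.4 and 42.0 CPM, against 59.5 and 66.9, and Paneth cell list genes to 218 and 427, against 1392 and 1577. Goblet cell markers summed to 26870 and 40235 CPM, against 45319 and 50375, and leukocyte markers to 7.67 and 15.9, against 32.4 and 25.4. The sums of all 4 of these lists were lower in both DDX5ΔIEC libraries than in both WT IEC libraries. Markers of mature absorptive cells (enterocytes) went the other way, at 4208 and 5051 CPM against 3662 and 3881. So did the general epithelial markers, at 11572 and 10812 CPM against 10611 and 10355. Not every gene followed its list. In the fit with the replicate block, 2 of 6 goblet genes tested had positive log2 fold changes (*Muc2* 0.09, *Zg16* 0.12). So did 1 of 4 Paneth list genes (*Lyz1*, 0.21) and 1 of 6 leukocyte genes (*Jchain*, 1.60), but 0 of 4 tuft cell genes. Positive values were found for 7 of 8 enterocyte and 5 of 7 general epithelial genes tested. The part of these differences in the members' values was not tested.

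**Figure D4:**
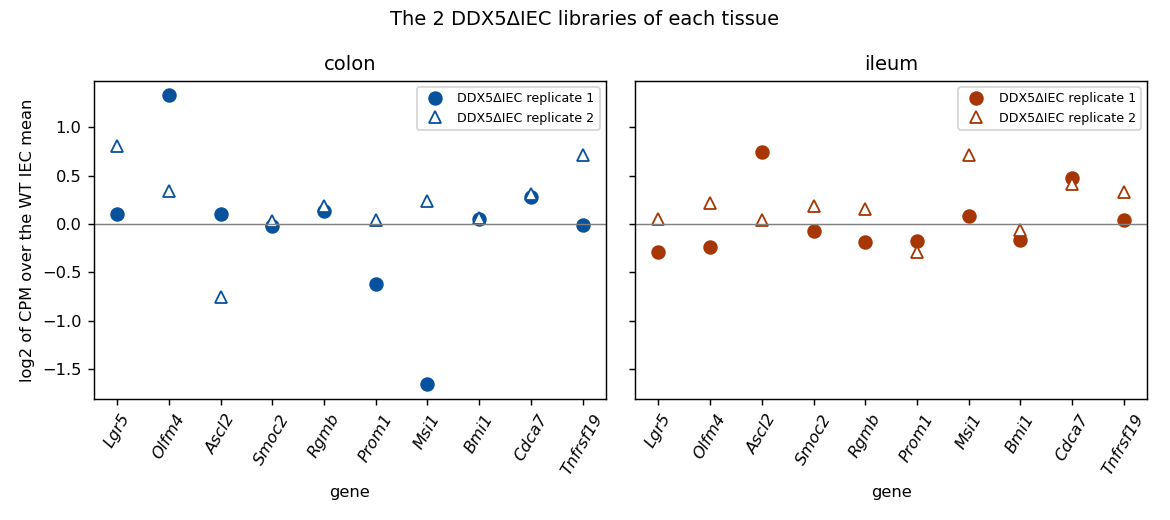
Log2 of each DDX5ΔIEC library's CPM over the mean CPM of the 2 WT IEC libraries of the same tissue (left, colon; right, ileum; filled circle, replicate 1; open triangle, replicate 2). In the colon the replicates lie on opposite sides of 0 for *Prom1* (-0.62 and 0.04) and *Msi1* (-1.66 and 0.24) and together for *Cdca7* (0.28 and 0.31).

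*Smoc2*, *Rgmb* and *Bmi1* varied least in the colon. *Smoc2* was at 26.4 and 27.2 CPM in DDX5ΔIEC, against 26.2 and 27.2 in WT IEC, and its fold of 0.997 had a 95% interval of 0.837 to 1.19. *Bmi1* was at 17.6 CPM in both DDX5ΔIEC libraries, between the WT IEC libraries at 15.4 and 18.5 (1.04-fold, 0.820 to 1.31). *Rgmb* was at 84.0 and 87.4 CPM, just above 74.9 and 78.3 (1.11-fold, 0.953 to 1.29, adjusted p = 0.54). Over the members, DDX5ΔIEC libraries lay above both WT IEC libraries for *Lgr5*, *Olfm4*, *Rgmb* and *Cdca7* and below both for none. Over all genes, 23.8% lay above and 20.7% below.

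In the ileum, too, no member was called, against 0.697% of 14068 genes. None met the study's criterion, against 7.35% of all genes, and DESeq2, which called 28 genes, called none of the members. *Cdca7* was again the member with the smallest p and the only 1 of the 10 with an unadjusted p under 0.05, against 12.3% of all genes. It was at 49.5 and 38.3 CPM in WT IEC ileum and at 61.2 and 58.4 in DDX5ΔIEC, 1.37-fold (95% interval 1.11 to 1.70, unadjusted p = 0.0081, edgeR adjusted p = 0.21). Its log2 fold change of 0.46 was just under the 0.5 of the study's criterion. Both DDX5ΔIEC libraries lay above both WT IEC libraries for *Cdca7* in each tissue. In no alternative did *Cdca7* pass the adjusted threshold. Proliferation genes, beside it, summed to 1312 and 1358 CPM in WT IEC ileum and 1095 and 1363 in DDX5ΔIEC, and 0 of 17 were called.

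*Olfm4* and *Lgr5* showed no call with DDX5 in the ileum. *Olfm4* was at 674 and 681 CPM in WT IEC and at 576 and 788 in DDX5ΔIEC, so the WT IEC libraries lay between the DDX5ΔIEC ones. Its fold was 0.995 (95% interval 0.739 to 1.34, adjusted p = 0.996). *Lgr5* was at 20.1 and 13.1 CPM in WT IEC and at 13.6 and 17.2 in DDX5ΔIEC, 0.935-fold (0.672 to 1.30). The interval of *Lgr5* reaches down to 0.672, and the 2 WT IEC mice differed by more than the genotypes did.

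The other ileal members had overlapping libraries, except *Prom1*. *Prom1* was at 195 and 200 CPM in WT IEC and at 176 and 161 in DDX5ΔIEC, below both (log2 fold change -0.23, 95% interval -0.53 to 0.08, adjusted p = 0.55). *Ascl2* was at 4.15 and 3.12 CPM against 6.09 and 3.75 (0.43, -0.17 to 1.02), and *Msi1* at 6.51 and 5.34 against 6.28 and 9.74 (0.40, -0.16 to 0.96). The log2 fold changes of *Tnfrsf19* (0.19), *Smoc2* (0.06), *Rgmb* (-0.012) and *Bmi1* (-0.10) were smaller in size. Libraries of the genotypes did not overlap for 2 members, 1 in each direction, against 18.7% of all genes above and 20.8% below. The median log2 fold change of the members was 0.03, and that of all genes was -0.0046.

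**Figure D5:**
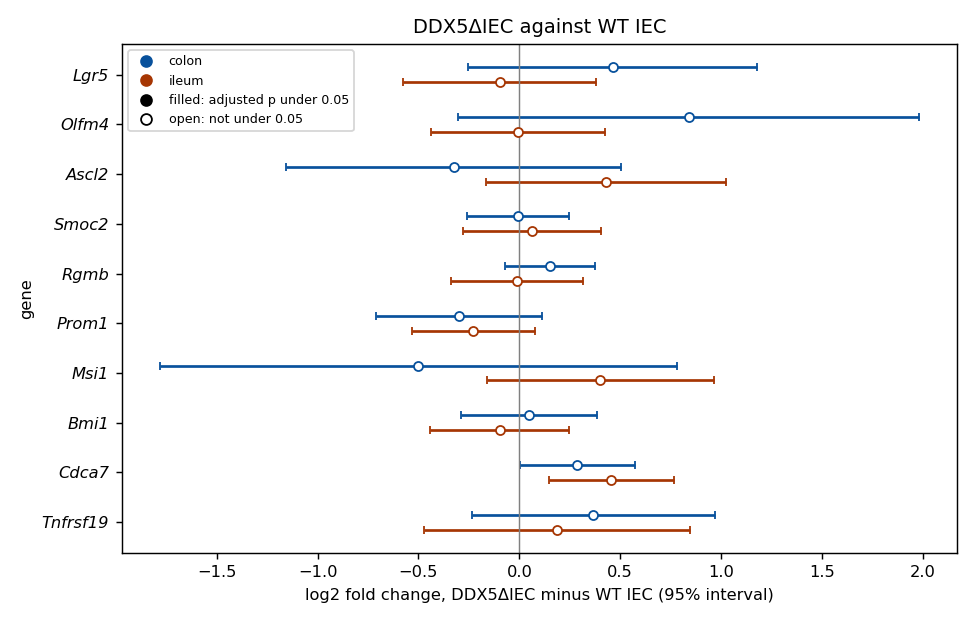
Log2 fold change of each member, DDX5ΔIEC minus WT IEC, in the colon (blue) and the ileum (brown), with 95% intervals from edgeR's fit with the replicate block. All points are open, since no adjusted p was under 0.05, and the interval lies above 0 only for *Cdca7*, at 0.29 in the colon and 0.46 in the ileum.

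Other crypt base genes gave no call with DDX5 in either tissue, 0 of 15 tested colonic and 0 of 16 tested ileal values. By size of p, *Lrig1* (0.33, adjusted p = 0.32) and *Mex3a*, an RNA-binding protein of slowly cycling crypt cells (-0.998, adjusted p = 0.34), came first in the colon. In the ileum these were *Igfbp4* (-0.83, adjusted p = 0.12) and *Soat1* (-0.27, adjusted p = 0.45). Their median log2 fold changes were -0.03 and -0.04. Of the epithelial ligands, *Reg4*, a secreted lectin of deep crypt secretory cells in the colon, was at -1.72 in the colon (adjusted p = 0.10). None of the reserve or repair genes was called, and *Tert* had a log2 fold change of 0.99 in the ileum (adjusted p = 0.29). Of the relatives, *Lgr4* was at 0.28 in the colon (adjusted p = 0.37) and *Msi2* at -0.39 in the ileum (adjusted p = 0.28). Of 17 proliferation genes, 0 were called in either tissue, with *Aurkb* (-0.41, adjusted p = 0.33) first in the colon and *Mki67* (-0.32, adjusted p = 0.53) in the ileum.

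Of the genes on all lists, 3 were called with DDX5, all of them in the ileum, where 0.697% of all genes tested were called. These were 2 of 4 tuft cell genes and 1 of 4 enteroendocrine genes, against 0 of 9 enterocyte, 0 of 6 goblet and 0 of 6 Paneth cell genes tested. The tuft cell genes *Dclk1*, a kinase, and *Sh2d6* fell by 0.83 and 0.88 on the log2 scale (adjusted p = 0.027 and 0.033), and *Chga*, chromogranin A of enteroendocrine cells, rose by 0.92 (adjusted p = 0.030). All 3 calls rest on the replicate block: with the 4 ileum libraries and no block, the adjusted p was 0.55 for *Dclk1*, 0.48 for *Sh2d6* and 0.34 for *Chga*, at log2 fold changes of -0.85, -0.90 and 0.93. With each ileum library left out in turn, also without the block, the log2 fold changes kept their signs, at -1.13 to -0.50, -1.15 to -0.60 and 0.72 to 1.12. In the colon all 4 tuft cell genes were lower in both DDX5ΔIEC libraries, at -1.52 to -1.05, with none called.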

How the data were processed

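RNAseq counts of 10 stem cell genes were analysed in colon and ileum IECs of 2 WT IEC and 2 DDX5ΔIEC mice. Per the labels and the methods, the authors aligned ribosome-depleted, stranded libraries to mm10 with STAR 2.6.1a, counted uniquely mapped reads over exons with featureCounts, and deposited raw counts for each gene, 1 table per tissue. The deposited normalized signal (counts over DESeq2 1.18.1 size factors) and the authors' own log2 fold changes, Wald scores and p-values were not used. The mouse numbers in the study's supplement tie the same-numbered colon and ileum libraries of a genotype to 1 mouse.

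Counts were tested with edgeR 4.0.16 in R 4.3.3 (filterByExpr with a minimum count of 10, TMM, quasi-likelihood test, Benjamini-Hochberg adjustment over all genes tested). Genotypes were compared within each tissue with the replicate number as a block, since the authors' design had a harvest covariate. The sources used here do not say which mice shared a harvest, so taking the number as the harvest is an assumption. Tissues and the interaction were compared over all 8 libraries without a block. Deviations of same-numbered WT IEC and DDX5ΔIEC libraries correlated at 0.016 (colon) and 0.25 (ileum), and those of the same mouse at 0.18 and 0.20. A gene listed in only 1 table was counted as 0 in the other. Levels between genes were divided by the deposited exon length. Members are all named; from each other list, genes with an adjusted p under 0.05 were named (at most 4, by p), and otherwise the 2 with the smallest p, not all of which are printed; *Hopx*, *Wnt3* counts and the stromal ligands were chosen after their values were seen. Patterns were compared with a pseudocount of 0.5 CPM. Alternatives were no block or a mouse block, RLE factors, no filter, DESeq2 1.42.0, other sets of libraries, no repeat-like genes, and each library left out in turn. The fits were run on simulated counts with a single fixed spread for all genes and no replicate effect. That setting is simpler than these libraries, so it does not show how well the fits do here. Members and lists were chosen with earlier results of these data known.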

Additional observations from a re-analysis of the deposited data

How the results depend on the processing

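Depth limited the colon values of *Olfm4* and *Msi1*, which rest on at most 27 counts per library, and 2 mice per group limited every genotype comparison. Without the replicate block, 0 of 10 members were called with DDX5 in either tissue, as with it, and 5 genes in all were called in the colon and 1 in the ileum, against 0 and 98 with the block. Counts over all genes also moved with DESeq2 (118 in the colon and 28 in the ileum), with all 8 libraries in one fit (16 and 1), and in the ileum without the filter (423) and without the repeat-like genes (20); at the study's criterion DESeq2 took 530 colonic and 353 ileal genes, against 1031 and 1034. For the interaction, 210 genes were called without the filter, 15 with DESeq2 and 1 with the mouse as the block, against 2. The members called stayed at 0 in all of these. With the mouse as a replicate block, 7 members were called in the WT IEC tissue comparison, *Bmi1* being added (log2 fold change 0.41, adjusted p = 0.028), and 6 in DDX5ΔIEC. In a fit on the DDX5ΔIEC libraries alone, *Prom1* lost its tissue call (adjusted p = 0.087). Values that changed sign were all near 0: *Smoc2* in the colon with all 8 libraries (0.0062), *Olfm4* in the ileum without the replicate block (0.011), without the repeat-like genes (0.00085) and with all 8 libraries (0.0030), and the interaction of *Prom1* without the filter (-0.019). The cause was not tested.

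With 1 library left out (and no replicate block for genotype), the members called with DDX5 numbered 0 to 1 in the colon and 0 in the ileum, those at the study's criterion 0 to 3 and 0 to 1 (*Cdca7* without WT IEC replicate 1, *Msi1* without DDX5ΔIEC replicate 1), and those called between the tissues 4 to 6 in each genotype. In the colon, members were called or met the criterion only in the fits without a DDX5ΔIEC library. Without replicate 1, *Lgr5* was called, and *Ascl2* and *Tnfrsf19* also met the criterion. Without replicate 2, *Prom1* was called, and *Olfm4* and *Msi1* also met the criterion. Shares of all genes called are not given for these fits, and each fit leaves a single library in 1 group. These counts therefore do not show whether lost or gained calls were particular to the members, which was not tested. Log2 fold changes that changed sign in the fits with 1 library left out had these ranges. In the colon these were *Bmi1* (-0.086 to 0.18), *Smoc2* (-0.038 to 0.023), *Prom1* (-0.64 to 0.031), *Msi1* (-1.66 to 0.21), *Ascl2* (-0.76 to 0.084) and *Tnfrsf19* (-0.026 to 0.70). In the ileum they were *Lgr5* (-0.38 to 0.23), *Rgmb* (-0.18 to 0.16), *Olfm4* (-0.23 to 0.22), *Smoc2* (-0.062 to 0.20), *Bmi1* (-0.26 to 0.059) and *Tnfrsf19* (-0.052 to 0.48). Between the tissues they were *Cdca7* (-0.15 to 0.22) and *Tnfrsf19* (-0.20 to 0.34) in WT IEC and *Tnfrsf19* (-0.44 to 0.29) in DDX5ΔIEC. In the interaction they were *Prom1* (-0.27 to 0.40), *Tnfrsf19* (-0.55 to 0.18), *Smoc2* (-0.069 to 0.20), *Bmi1* (-0.31 to 0.0031) and *Cdca7* (-0.018 to 0.35).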
